A study of Mus musculus with 6 samples.

Results

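The 28 genes described here encode the enzymes and regulators with which a cell makes cholesterol and fatty acids. They were taken by gene name from a deposited table of 39179 genes. Of these, 27 were found under the names used here, and Msmo1 was found by its Ensembl identifier under its older name Sc4mol. They form a sterol arm of 21 genes and a fatty acid arm of 7 genes. RNA had been sequenced from endothelial cells sorted from livers of wild-type male 129S6/SvEvTac mice, with 3 biological replicates in each of 2 diet groups. All mice ate a purified rodent diet for 4 weeks, from 3 to 7 weeks of age. Iron was given at 37 ppm, as ferric citrate, in the control_iron group and at 10000 ppm, as carbonyl iron, in the high_iron group. The groups therefore differed in the form of the iron as well as in its amount. The sort kept CD31+ CD146+ cells without CD45, lineage markers, MHC class II or CD64.

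Cells build cholesterol from acetyl-CoA by way of mevalonate, squalene and lanosterol. The transcription factor SREBP-2, encoded by Srebf2, drives nearly all of these enzyme genes when membranes run short of sterol, and Insig1 encodes the protein that holds the SREBP precursors in the endoplasmic reticulum when sterol is plentiful. SREBP-1, from Srebf1, acts more on the genes of fatty acid synthesis. In the liver both pathways are best known from hepatocytes, while endothelial cells also take up sterol and fatty acids from the blood.

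None of the 27 genes that could be tested differed between the diets past the threshold, an adjusted p under 0.05. By limma 0 of the 20 tested sterol genes and 0 of the 7 fatty acid genes were called, where 1.02% of all 12980 genes tested were (0.832% with a higher level in high_iron libraries, 0.193% with a lower one). At an unadjusted p under 0.05 limma counted 2 of the 27, the sterol genes Stard4 and Sqle, both lower on the high-iron diet, against 12.1% of all genes (7.3% higher and 4.82% lower). The tools edgeR and DESeq2, run on the recovered reads, called 0 of the 27 each, against 0.924% and 3.34% of all genes. Stard4 and Sqle were also the members whose libraries did not overlap between the groups, in the same direction, where 8.44% of all genes were apart that way. No tested member had all high_iron libraries above all control_iron libraries, against 9.46% of all genes. Fold changes below are on the log2(CPM + 1) scale, where CPM is the reads of a gene per scaled library size, and this scale understates the change of low genes. Of the 27 members 15 had a negative log2 fold change, against 50.5% of all genes. Intervals are 95% limma confidence intervals for single genes, without adjustment for the number of genes.

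**Figure D1:**
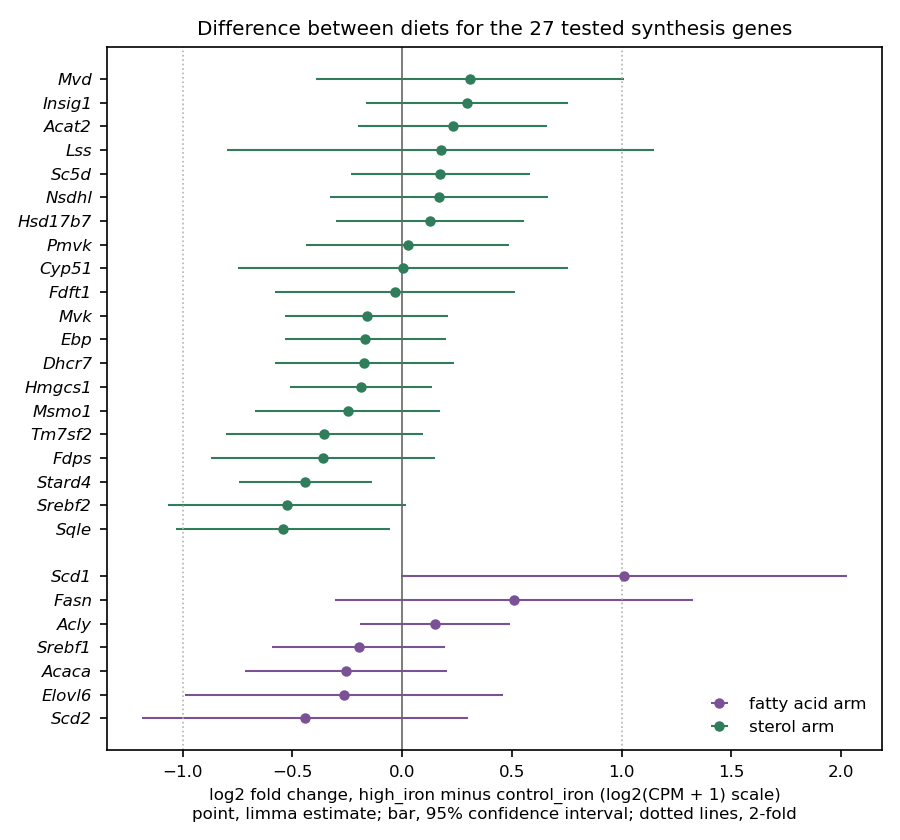
Difference between diets for the 27 tested genes, as the log2 fold change (high_iron minus control_iron) with its 95% confidence interval. The x axis is on the log2(CPM + 1) scale, dotted lines mark a 2-fold change, and genes are ordered within the sterol arm (green) and the fatty acid arm (purple). Stard4 and Sqle are the genes whose interval leaves out 0, and 20 of the 27 intervals lie inside the 2-fold lines.

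The libraries held between 12963510 and 21663543 reads in genes, with high_iron replicate 3 the shallowest. Endothelial genes dominated the sort. The 15 endothelial markers examined summed to between 26974 and 28489 CPM in control_iron and between 25245 and 26477 CPM in high_iron libraries. Of these markers 3 had a positive log2 fold change, and their median was -0.19. Transcripts of other liver cells were present, although the gate left out cells with CD45 or CD64. The 27 hepatocyte markers summed to between 620 and 2261 CPM in control_iron and between 1257 and 2345 CPM in high_iron libraries, and 26 of them had a positive log2 fold change. The 18 macrophage markers summed to between 79.9 and 186 CPM in control_iron and between 276 and 553 CPM in high_iron libraries, and all 17 tested were higher. None of the markers on these lists was at 0 in all 6 libraries. In sorted bulk RNA, fewer cells of a type and less RNA per cell cannot be told apart.

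Among the regulators, Srebf2 stood at 68.2, 45.0 and 67.7 CPM in control_iron replicates 1 to 3 and at 32.9, 35.4 and 58.7 CPM in high_iron replicates 1 to 3. The first pair of high_iron libraries lay below every control library, and the third lay inside the control range. Its log2 fold change was -0.52 ± 0.24 (± SE, adjusted p = 0.43), with an interval from -1.07 to 0.02. Insig1 was at 53.1, 40.5 and 30.1 CPM in control_iron and at 46.4, 46.2 and 56.8 CPM in high_iron libraries, so that the control libraries spread across most of the range of both groups. Its log2 fold change was 0.29 ± 0.21 (adjusted p = 0.585). Srebf2 occupies bases 82147181 to 82205379 of chromosome 15 and Insig1 bases 28071363 to 28078662 of chromosome 5, both on the plus strand of GRCm38 (mm10) in GENCODE M21.

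Stard4 encodes a small carrier that moves sterol between membranes. It was at 131, 132 and 154 CPM in the control_iron and at 107, 90.02 and 108 CPM in the high_iron libraries. The groups were apart, with a mean of 139 ± 12.99 against 102 ± 10.3 CPM (SD, n = 3 each). The log2 fold change of -0.44 ± 0.14 (interval -0.75 to -0.14) had the smallest p of the 27 genes and did not pass after adjustment over all genes (limma adjusted p = 0.21).

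A sequence feature that was not used to choose the genes was frequent in the promoters of the sterol arm. Of the 28 members, 22 have an entry in the RefSeq promoter table (GRCm38.p6), which runs from 250 bases before to 50 bases after each start site. The letters CCAAT, the box bound by NF-Y, a factor that works beside SREBP, were searched on both strands. They occurred in 16 of 17 sterol genes (94.1%) and in 3 of 5 fatty acid genes, against 41.1% of all genes in the table and 42.8% of the table's genes that were tested here. At least 2 such boxes were present in 9 of the 17 sterol genes, against 13.3% of all genes and 16.8% of those tested here. Some genes have several start sites, and counted by window 20 of 27 member windows held the box, against 37.4% of all windows. The core of the sterol regulatory element, TCACNCCAC, occurred on either strand in 1 member, Hmgcs1, and in 1.44% of all genes. Only exact matches inside the window were counted, so variant or more distant elements would be missed.
Stretches of 150 bases from 3 members are shown because they cover a target enzyme of each arm and the regulator gene itself. The stretches of Hmgcs1 and Fasn end 1 base before the RefSeq start site, and that of Srebf2 ends 89 bases before it, where the GENCODE gene begins. Capitals mark CCAAT or its reverse complement ATTGG and, in Hmgcs1, the sterol element. In Fasn a CCAAT and an ATTGG overlap in the run CCAATTGG.
Hmgcs1, chr13:119690201-119690350, plus strand: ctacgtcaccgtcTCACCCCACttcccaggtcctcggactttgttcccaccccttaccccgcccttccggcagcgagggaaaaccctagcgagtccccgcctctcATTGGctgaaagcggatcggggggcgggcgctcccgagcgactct
Srebf2, chr15:82147031-82147180, plus strand: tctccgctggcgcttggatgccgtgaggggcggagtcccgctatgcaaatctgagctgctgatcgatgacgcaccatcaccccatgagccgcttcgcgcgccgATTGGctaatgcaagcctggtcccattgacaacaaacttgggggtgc
Fasn, chr11:120824548-120824697, minus strand: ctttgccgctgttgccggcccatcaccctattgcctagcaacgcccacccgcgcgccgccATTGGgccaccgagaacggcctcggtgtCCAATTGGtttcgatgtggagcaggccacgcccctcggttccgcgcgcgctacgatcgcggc
A match of letters is a description of the sequence and shows no binding.

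Of the 7 genes that lead from acetyl-CoA to farnesyl diphosphate, Hmgcs1, the cytosolic HMG-CoA synthase and the carrier of the sterol element above, was the highest per length, at 32.0 ± 2.33 RPKM on the control diet and 28.2 ± 4.07 RPKM on the high-iron diet (SD, n = 3). In CPM it was at 108, 94.5 and 107 in control_iron and 79.6, 88.0 and 105 in high_iron libraries. The groups overlapped through high_iron replicate 3, and the log2 fold change was -0.19 ± 0.14 (adjusted p = 0.62). Mvk and Pmvk, which phosphorylate mevalonate, had log2 fold changes of -0.16 and 0.02. Acat2, the cytosolic thiolase of the first step, had one of 0.23, and 65.6% of its transcript is near-identical to Acat3, which leaves the assignment of its reads uncertain. The log2 fold change of Fdps, farnesyl diphosphate synthase, was -0.36 ± 0.23 (adjusted p = 0.55), and 26.7% of its exon bases also belong to another gene model of that strand. Mvd, the mevalonate diphosphate decarboxylase, was at 8.16, 4.04 and 3.76 CPM in control_iron and at 4.62, 8.90 and 6.53 CPM in high_iron libraries. The groups overlapped, with the highest value, 8.90 CPM, in high_iron and the lowest, 3.76 CPM, in control_iron.

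Idi1, the isomerase of isopentenyl diphosphate, is the member that was not tested, since it stayed under 1 CPM in all 6 libraries. It was represented by 10, 11 and 5 reads in control_iron and by 15, 13 and 11 reads in high_iron libraries. In CPM this is 0.519, 0.511 and 0.285 against 0.770, 0.766 and 0.846. The groups did not overlap, but each value rests on few reads. Fitted without the filter, its log2 fold change was 0.32 ± 0.13 (limma adjusted p = 0.50).

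In the passage from farnesyl diphosphate to lanosterol, Sqle, the squalene epoxidase, was at 19.2, 12.3 and 15.1 CPM in control_iron and at 9.19, 9.37 and 12.2 CPM in high_iron libraries. The groups were separated by a small gap, between 12.2 and 12.3 CPM. The log2 fold change was -0.54 ± 0.22 (interval -1.03 to -0.06, unadjusted p = 0.032, limma adjusted p = 0.36). Sqle occupies bases 59315077 to 59331192 of chromosome 15, plus strand. Fdft1, squalene synthase, had a log2 fold change of -0.03 ± 0.24, and the exons of Ctsb on the opposite strand cover 18.3% of its exon bases in a library that does not mark strand. Lss, lanosterol synthase, was low, at 1.61, 1.3 and 2.11 CPM in control_iron and at 0.359, 3.36 and 3.54 CPM in high_iron libraries. The value of high_iron replicate 1 rests on 7 reads, and the interval of the log2 fold change ran from -0.80 to 1.15.

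The 8 genes from lanosterol to cholesterol had log2 fold changes between -0.35 and 0.17, with all 8 intervals inside a 2-fold change. Tm7sf2, a sterol reductase, stood at the lower end (-0.35 ± 0.20, adjusted p = 0.51), and 12.1% of its exon bases overlap Vps51. Sc5d, the sterol desaturase, stood at the upper end (0.17 ± 0.18, adjusted p = 0.71). Msmo1 and Nsdhl, which remove methyl groups from the ring, had values of -0.25 and 0.17, and Hsd17b7 of the same steps had 0.13. Ebp, the sterol isomerase, was the most abundant of the 8 per length, at 28.1 ± 4.77 RPKM on the control diet and 24.8 ± 2.52 RPKM on the high-iron diet. Dhcr7, a reductase that completes cholesterol, had a log2 fold change of -0.17 ± 0.18. Cyp51, the lanosterol demethylase, was at 11.4, 5.53 and 3.76 CPM in control_iron and at 5.70, 5.54 and 7.84 CPM in high_iron libraries. Its control libraries enclosed all the high_iron values.

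**Figure D2:**
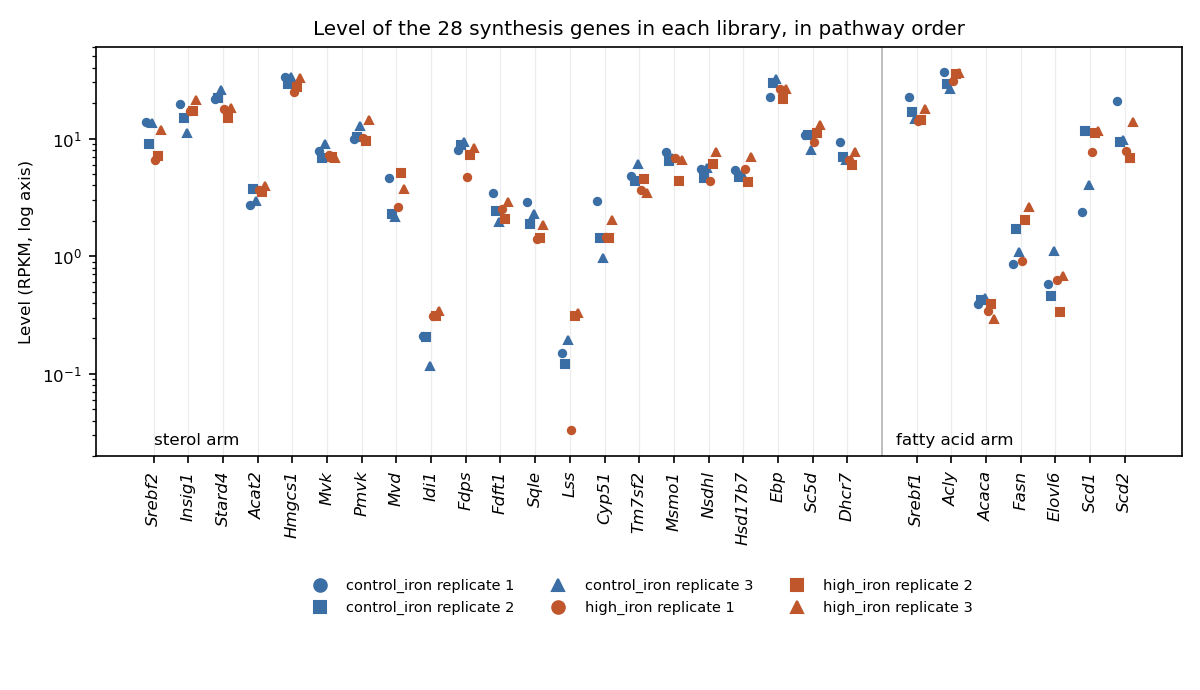
Level of the 28 genes in each library in RPKM on a log axis, in pathway order, with the sterol arm left of the line and the fatty acid arm right of it. Blue symbols are control_iron and orange symbols high_iron libraries, with one shape per replicate number, which the main test did not use to pair the groups. Hmgcs1, Ebp and Acly lie near the top, Idi1, Lss and Acaca near the bottom, and the colours overlap for every gene except Stard4, Sqle and Idi1.

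Levels per length differed far more between steps of the pathway than between diets. Mean RPKM over the 6 libraries ran from 0.190 for Lss and 0.250 for Idi1 to 30.1 for Hmgcs1 in the sterol arm. In the fatty acid arm it ran from 0.381 for Acaca, the acetyl-CoA carboxylase, to 32.6 for Acly, which makes cytosolic acetyl-CoA from citrate. A processed pseudogene matches 64.3% of the Acaca transcript, so its low level is uncertain. Srebf1 was at 18 ± 3.91 RPKM on the control diet and 15.5 ± 2.12 RPKM on the high-iron diet, and Srebf2 at 12.1 ± 2.66 and 8.52 ± 2.87 RPKM.

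In the fatty acid arm, Srebf1 was at 115, 86.8 and 76.4 CPM in control_iron and at 73.5, 74.1 and 92.7 CPM in high_iron libraries. The control range reached higher and the groups overlapped, with a log2 fold change of -0.20 ± 0.18 (adjusted p = 0.67). Acly was at 231, 183 and 165 CPM in control_iron and at 192, 222 and 224 CPM in high_iron libraries, inside the control range throughout (log2 fold change 0.15 ± 0.15, adjusted p = 0.71). Acaca had a log2 fold change of -0.25 ± 0.21, and Elovl6, which elongates palmitate, one of -0.27 ± 0.32. Fasn, the fatty acid synthase, was at 8.78, 17.3 and 11.1 CPM in control_iron and at 9.34, 20.7 and 26.8 CPM in high_iron libraries. High_iron replicates 2 and 3 lay above every control library and replicate 1 near the control minimum. The log2 fold change was 0.51 ± 0.36, with an interval from -0.31 to 1.32 (adjusted p = 0.60).

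The desaturases Scd1 and Scd2, which place the double bond of oleate and palmitoleate, are neighbours on chromosome 19. Scd1 runs from 44394455 to 44407879 on the minus strand and Scd2 from 44293674 to 44306864 on the plus strand, and 11.4% of the Scd2 transcript is near-identical to Scd1. Scd1 was at 11.4, 56.0 and 19.4 CPM in control_iron and at 37.2, 53.7 and 55.6 CPM in high_iron libraries. The lowest and the highest libraries were both controls. Its log2 fold change of 1.01 ± 0.45 was the largest of the 27 in size and did not pass (limma unadjusted p = 0.051, limma adjusted p = 0.41). The estimate was smaller with edgeR, at 0.75 (adjusted p = 0.55), and with DESeq2, at 0.76 (adjusted p = 0.71). With the replicate number as a block, the limma value of 1.01 passed (adjusted p = 0.031). Without control_iron replicate 2 the limma log2 fold change of Scd1 was 1.62 and passed (limma adjusted p = 0.043). Without control_iron replicate 1 it was 0.52 (adjusted p = 0.43), and with any other library left out the adjusted p reached up to 0.83. Scd2 was at 113, 50.7 and 53.2 CPM in control_iron and at 42.6, 37.4 and 75.0 CPM in high_iron libraries, so that it was highest in control_iron replicate 1, the library in which Scd1 was lowest. Its log2 fold change was -0.44 ± 0.33 (adjusted p = 0.61), and -0.074 without control_iron replicate 1. The ratio of Scd1 to Scd2 in RPKM was 0.114, 1.25 and 0.412 in control_iron and 0.984, 1.62 and 0.836 in high_iron libraries.

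Hepatocyte transcripts moved among the libraries in a way close to Scd1. The 27 hepatocyte markers summed to 620, 2261 and 1547 CPM in control_iron replicates 1 to 3 and to 1257, 2345 and 1941 CPM in high_iron replicates 1 to 3, and Alb, albumin, was at 69.9, 278 and 177 CPM and at 184, 257 and 239 CPM. Control_iron replicate 1 was lowest for Scd1, Fasn, Alb and the marker sum alike. For Scd1 the other low libraries were control_iron replicate 3 and high_iron replicate 1, the same as for the marker sum. Stellate cell and fibroblast markers ranked the libraries in the same order as the hepatocyte markers. They summed to 375, 1545 and 804 CPM in control_iron and to 596, 1654 and 1161 CPM in high_iron libraries. The part of hepatocyte or stellate cell RNA in the values of Scd1 and Fasn was not tested. Scd1 kept the order of the marker sums only in part. It was at 19.4 CPM in control_iron replicate 3 and 37.2 CPM in high_iron replicate 1, where the hepatocyte markers summed to 1547 and 1257 CPM. Scd1 was highest in control_iron replicate 2, Fasn in high_iron replicate 3 and the marker sums in high_iron replicate 2. Scd2 was highest in control_iron replicate 1, where the marker sums were lowest.

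**Figure D3:**
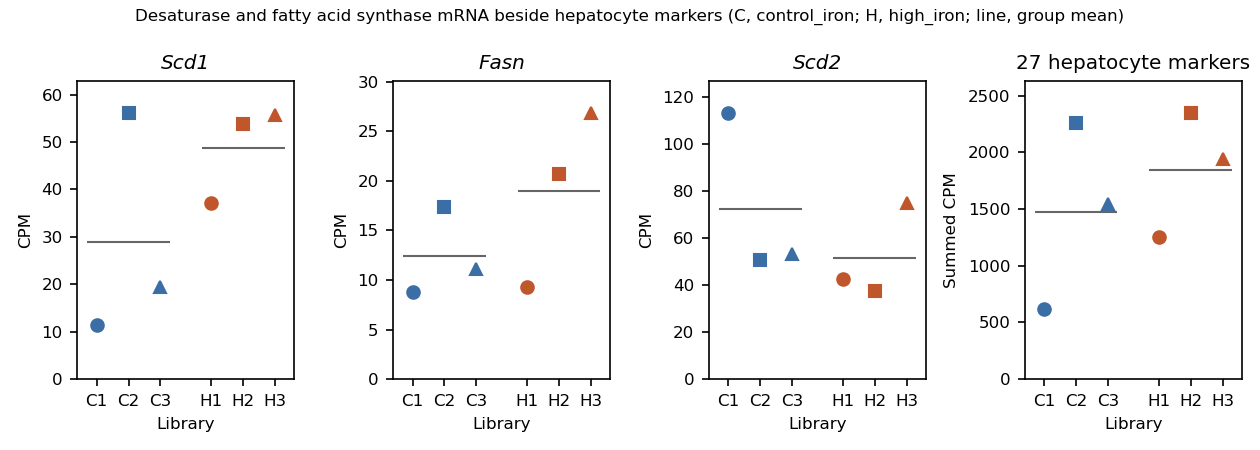
Scd1, Fasn and Scd2 in CPM and the summed CPM of 27 hepatocyte markers in each library, with blue control_iron (C) and orange high_iron (H) libraries and a line at each group mean. Axes start at 0. Scd1 and the marker sum are lowest in C1, at 11.4 and 620 CPM, where Scd2 is highest, at 113 CPM.

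The arms were compared by description, since their genes are not replicates. The median log2 fold change was -0.10 over the 20 sterol genes and -0.20 over the 7 fatty acid genes, beside -0.003 over all genes tested. The mean over the fatty acid genes was 0.07, of the other sign, because Scd1 and Fasn lie far above the rest. The sterol genes ranged from -0.54 to 0.31, with 11 negative values and 9 positive ones, and the fatty acid genes from -0.44 to 1.01, with 4 negative and 3 positive. The medians lay 0.10 apart, and their order turned in 3 of the 6 fits that left out 1 library. Without control_iron replicate 3 they were -0.11 for the sterol and 0.034 for the fatty acid genes, without high_iron replicate 2 they were -0.063 and -0.030, and without control_iron replicate 1 they were nearly equal, at -0.0332 and -0.0321. Precision differed between the arms. The interval stayed inside a 2-fold change for 16 of 20 sterol genes and for 4 of 7 fatty acid genes, against 80.8% of all genes, and the exceptions were Srebf2, Sqle, Mvd, Lss, Scd1, Scd2 and Fasn. The median SD of log2(CPM + 1) among control_iron libraries was 0.22 for the sterol and 0.46 for the fatty acid genes, and among high_iron libraries 0.22 and 0.31. For all genes it was 0.25 and 0.17.

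The diet means of each arm differed by less than the pooled SD among libraries of 1 diet. Averaged over the 20 sterol genes, and expressed as the deviation from each gene's mean over all libraries, control_iron replicates 1 to 3 lay at 0.17, -0.06 and 0.01 and high_iron replicates 1 to 3 at -0.20, -0.09 and 0.17 on the log2 scale. The diet means differed by -0.08, beside a pooled SD within groups of 0.16. Single control_iron libraries spanned 0.23 and high_iron libraries 0.38. The 7 fatty acid genes lay at -0.08, 0.08 and -0.11 in control_iron and at -0.17, -0.01 and 0.29 in high_iron libraries. Their diet difference was 0.07, beside a pooled SD within groups of 0.18 and spans of 0.18 and 0.47. High_iron replicate 3 was the highest of the high_iron libraries for 21 of the 27 members (15 of 20 sterol and 6 of 7 fatty acid genes), where it was the highest for 30.5% of all genes tested. This count was made after the values were seen. It was 20 of 27 with the libraries scaled to their total reads and 20 with DESeq2 size factors. Relative to the mean of the other high_iron libraries, the members of high_iron replicate 3 had a median difference of 0.33, against 0.02 over all genes. In control_iron, replicate 1 was the highest for 11 of 20 sterol genes, where it was for 36.1% of all genes, and replicate 2 for 1 of 20, where it was for 28.7% of all genes. With DESeq2 size factors replicate 1 was the highest for 9 of 20 and replicate 3 for 10 of 20, so the leading control library depended on the scaling.

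Marker lists of other cells peaked in different high_iron libraries. Hepatocyte and stellate cell markers summed highest in high_iron replicate 2, at 2345 and 1654 CPM, and macrophage markers in high_iron replicate 1, at 553 CPM. The 11 lymphocyte markers, low throughout, summed highest in high_iron replicate 3, at 17.7 CPM beside 17.3 and 11.6 CPM in replicates 1 and 2, and their part in the member values was not tested. High_iron replicate 3 was the shallowest library, and the part of depth in its member values was not tested.

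**Figure D4:**
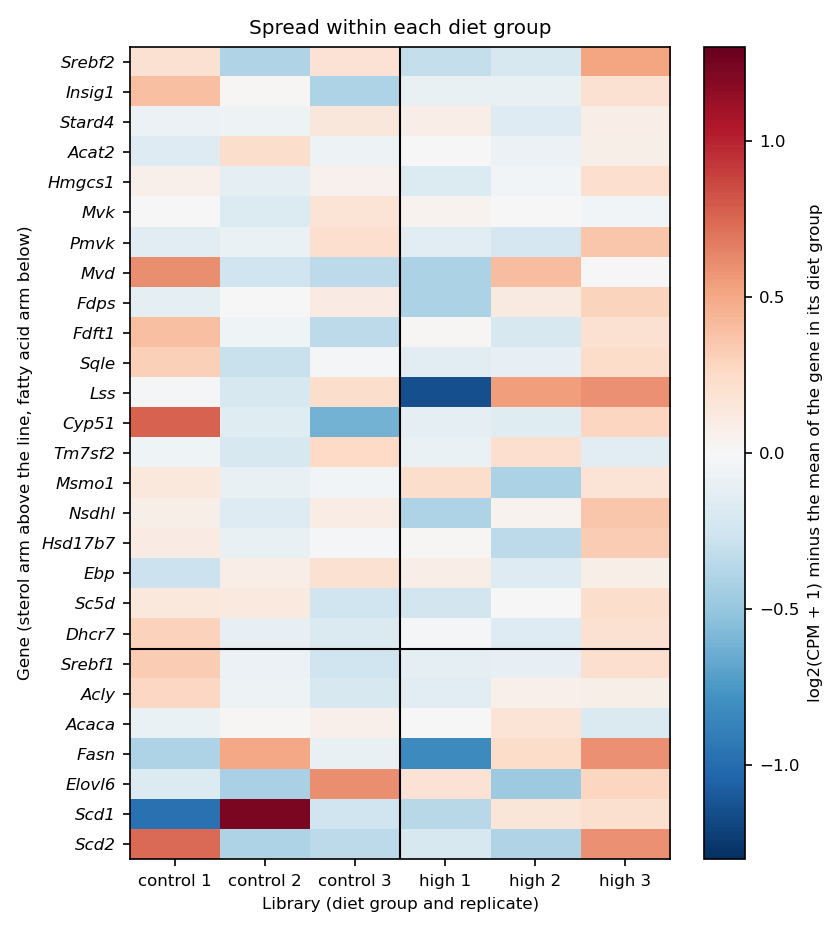
Deviation of each tested gene from its own diet group mean in each library, on the log2(CPM + 1) scale, red above and blue below. The sterol arm is above the horizontal line and the fatty acid arm below it, and the vertical line separates the diets. The column of high_iron replicate 3 is red for most genes, in which 21 of 27 have their highest high_iron value, and Scd1 and Scd2 have opposite colours in control_iron replicate 1.

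Other genes of the sterol pathway were not called either. Of 28 listed genes, 26 were tested and limma called 0, with 0 at an unadjusted p under 0.05 and 0 called by edgeR or DESeq2. Lipa, the lysosomal lipase that frees cholesterol, was at 231 ± 14.5 CPM on the control diet and 278 ± 25.8 CPM on the high-iron diet (SD, n = 3), without overlap (log2 fold change 0.26 ± 0.13, limma adjusted p = 0.44). Of the 26 genes, 1 was apart in that direction, against 9.46% of all genes, and 1 in the other, against 8.44%. Scap and Insig2, which escort and retain the SREBP precursors, had log2 fold changes of -0.13 and -0.09, and Mbtps2, a protease that releases them, one of -0.39.

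Of 17 genes of LXR, the receptor that senses oxysterols, and of sterol efflux, 14 were tested and limma called 0. At an unadjusted p under 0.05 there were 6, of which 4 had a higher level in high_iron libraries and 2 a lower one, against 7.3% and 4.82% of all genes. No gene of the list was called by edgeR (0 of 14), and DESeq2 called 1, Mylip, where it called 3.34% of all genes. Mylip encodes a ubiquitin ligase that LXR induces. It was at 385, 514 and 457 CPM in control_iron and at 335, 221 and 261 CPM in high_iron libraries, without overlap (log2 fold change -0.74 ± 0.18, limma adjusted p = 0.10, DESeq2 adjusted p = 0.0092). Of the 14 genes, 2 were apart in that direction, against 8.44% of all genes, and 4 in the other, against 9.46%. Nr1h3, the LXR-alpha gene, which macrophages and hepatocytes also express, was at 5.95 ± 3.57 and 12.6 ± 2.34 CPM (log2 fold change 1.07 ± 0.33, adjusted p = 0.215), and Nr1h2, LXR-beta, at 119 ± 4.59 and 114 ± 9.97 CPM. The efflux transporters Abca1 and Abcg1 did not pass (log2 fold change 0.43 ± 0.25 and 0.21 ± 0.12, adjusted p = 0.51 each). Arl4c, an LXR target, and Cyp27a1, which makes an oxysterol, had values of -0.63 ± 0.24 and 0.39 ± 0.16 (adjusted p = 0.34 and 0.38).

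Of 40 other genes of fatty acid synthesis and esterification, 35 were tested, of which 26 had a positive log2 fold change. The median was 0.22, beside -0.003 over all genes. At an unadjusted p under 0.05 limma counted 7, all with a higher level in high_iron libraries, against 7.3% of all genes. After adjustment limma called 1, against 1.02% of all genes. This was Pparg, the nuclear receptor of fat storage. It rose from 3.27, 0.836 and 0.911 CPM in control_iron to 10.6, 10.1 and 7.995 CPM in high_iron libraries (log2 fold change 2.09 ± 0.33, limma adjusted p = 0.024, edgeR adjusted p = 0.059). The values of 0.836 and 0.911 CPM lie under the 1 CPM of the filter, which Pparg met through its high_iron libraries. The call was lost in 5 of the 6 fits that left out 1 library, with an adjusted p of up to 0.12, and passed without control_iron replicate 1. DESeq2 called 4 of the 35, Pparg, Me1, Hacd3 and Cyb5a, against 3.34% of all genes. Me1, malic enzyme, which supplies NADPH, was at 2.96, 11.3 and 9.34 CPM in control_iron and at 16.6, 27.8 and 31.1 CPM in high_iron libraries (log2 fold change 1.67 ± 0.41, limma adjusted p = 0.10). Hacd3, a dehydratase of very long chain elongation, was at 58.8 ± 18.1 and 108 ± 9.26 CPM (log2 fold change 0.91 ± 0.22, limma adjusted p = 0.10; 0.030 without control_iron replicate 1), and Cyb5a, which passes electrons to the desaturases, at 452 ± 75.4 and 645 ± 20.4 CPM (limma adjusted p = 0.18). The diets did not overlap for Me1, Hacd3 or Cyb5a, which are named for a call on these same libraries. Of the 35 genes, 7 had all high_iron libraries above all control_iron libraries, against 9.46% of all genes. All lay below for 1 of the 35, against 8.44% of all genes. Macrophage and hepatocyte markers, whose sums are given above, had higher sums in high_iron libraries on average, and their part in the values of Pparg, Me1, Hacd3, Cyb5a and Nr1h3 was not tested. Fads1 and Fads2, desaturases of polyunsaturated fatty acids, had log2 fold changes of 0.39 ± 0.17 and 0.78 ± 0.34, and Acss2, Mlxipl and Thrsp of 0.34, 0.21 and 0.03. None of these 5 passed by limma, edgeR or DESeq2.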

How the data were processed

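The deposited data are 2 tables with 39179 genes and 6 libraries. In the first the authors gave a normalized signal named CPM, reads per gene over a scaled library size, and in the other RPKM values, which the authors' tables show to equal 1000 × CPM / gene length. STAR, HTSeq, edgeR and mm10 are named in the submitters' processing notes. The annotation release and the settings of the counting step are in none of the sources used here. Libraries were made from 70 ng RNA with a low-input cDNA kit that does not mark strand, per the labels' protocols. All 114253 values above 0 were whole multiples of a library's step within 0.001 (100%), so whole reads could be recovered. The floor of 3 reads is 0.139 to 0.231 CPM.

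The main test was limma 3.58.1 (R 4.3.3) on log2(CPM + 1) with an intensity trend, group as the one term and Benjamini-Hochberg adjustment, over 12980 genes with at least 1 CPM in at least 3 libraries. On the recovered reads edgeR 4.0.16 (quasi-likelihood) called 120 genes and DESeq2 1.42.0 called 434, beside 133 by limma. DESeq2 gave no adjusted p for 2 genes. Replicates of 1 group differed beyond the noise of read sampling (chi-square over its degrees of freedom, 18.2 to 89.1), so none was the same library sequenced again. This comparison cannot tell separate mice from separate libraries of the same RNA. The labels call the libraries of a group biological replicates and name no batch. Positions and overlaps come from GENCODE M21, and copies were searched with BLAST+ 2.17.0 at 95% identity. The procedure was tested on simulated reads.

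Members and the 11 gene lists were chosen with earlier results of these data known, so no p is adjusted over a list. Named genes are all members, and from the 3 lists of other pathway genes those called, the 4 with the smallest p and 17 preset ones, with the 2 most abundant of a marker list allowed. Cholangiocyte (7) and lymphocyte (11) marker lists had 1 and 3 tested genes, with median log2 fold changes of 0.89 and 1.17. Some genes of these lists are not reported here.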

Additional observations from a re-analysis of the deposited data

How the results depend on the processing

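With 10 other settings and 6 fits that left out 1 library each, 0 sterol genes were called throughout. Of 269 member values under the other settings, 265 kept their direction and side of the threshold. Cyp51 changed sign, to -0.12 with edgeR, -0.11 with DESeq2 and -0.0021 with libraries scaled to their total reads, from 0.004. Of 162 values with 1 library left out, 148 kept both, and 13, from 7 genes, changed sign, all uncalled: Pmvk ranged from -0.15 to 0.14, Fdft1 from -0.20 to 0.16, Lss from -0.12 to 0.75, Cyp51 from -0.30 to 0.39, Nsdhl from -0.015 to 0.37, Hsd17b7 from -0.038 to 0.30 and Elovl6 from -0.48 to 0.034. The fatty acid genes called numbered 0 to 1 when 1 library was left out.

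Calls over all genes numbered 34 without a filter, 74 without the intensity trend, 434 with DESeq2 (339 higher, 95 lower) and 27 to 183 with 1 library left out, from 133 (108 higher, 25 lower). Calls on the lists of other pathway genes, 1 in all, numbered 0 without a filter, with a minimum of 1 CPM in all libraries and with edgeR, 5 with DESeq2, and 0 to 2 with 1 library left out. The minimum of 1 CPM in all libraries removed Pparg, so that this setting did not test it. With 1 library left out, the sterol median ran from -0.15 to -0.03, the fatty acid median from -0.23 to 0.034 and their difference from -0.15 to 0.14. Causes were not tested.

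Same-numbered libraries of the groups deviated together with r = 0.13, 0.32 and 0.06 over genes. The value of 0.06 lay under 0.1, the limit used here for every pair, and the main test had no block. These correlations cannot show that the libraries were unpaired. Control_iron replicates 1 and 2 correlated best with the high_iron library of their own number, and replicate 3 with high_iron replicate 1 (0.20). With the replicate number as a block, 402 genes were called, 1 of the fatty acid genes (Scd1, log2 fold change 1.01, adjusted p = 0.031) and 5 genes of the other pathway lists. Low reads limit Idi1 and Lss.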
